A study of Mus musculus with 7 samples.

Results

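Mouse genes named Zfp with a number encode zinc finger proteins, most of them of the C2H2 class. Such a finger is a short loop folded around a zinc ion, and arrays of fingers can recognise DNA sequences. Many members carry a KRAB domain, which recruits the corepressor TRIM28 and histone methylation to silence transposable elements and nearby genes, and these members lie in tandem arrays that differ between species. Others are of a different kind: the Zfp36 proteins have CCCH fingers and bind AU-rich messenger RNA, and a few members act in ribosome assembly or splicing. In T cells, Zfp36 proteins restrain activation by destroying cytokine messages, and Zfp335 is needed for new T cells to mature.

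Members were taken from a peak list by gene name, as every protein-coding gene whose symbol is Zfp followed by a digit. This gave 94 genes with 99 of the 6395 listed peaks, and 397 protein-coding Zfp genes of RefSeq were the pool they came from. The rule used no measured value. ATAC-seq, where a transposase inserts adapters into accessible DNA, was used to map open chromatin in Tfh cells (CD4 T cells that help B cells) from the spleen. All mice were B6/Sle1.Yaa, a lupus-prone strain with the Sle1 susceptibility region and the Y-linked Yaa autoimmunity accelerator, and were 5 months old and not infected. The treated group (4 samples) was given an antibody to IFNAR1, a receptor chain for type I interferon (written IFNA1 in the treatment labels), and the control group (3 samples) anti-rat IgG, 2 doses per week over 4 weeks. Sorted cells were CD4+ CD44+ GITR- PD-1-high CXCR5-high and PSGL-1-low, and the labels leave unstated whether a sample is 1 mouse or several.

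The list states 1 comparison and has no column for a sample, and which libraries entered each side is not given, so no value here carries a spread between mice and no difference between groups of mice was tested. Every listed peak is higher on the anti-IFNAR1 side, and sites that were higher in the control group were not analysed. The pileup (fragments over the summit, scaled to control depth), the fold over the control background and the q are the authors' values from their deposited table. The pileups were whole multiples of 0.283, so they were turned back into fragments, and the anti-IFNAR1 side was 3.54 times as deep. Of 11 Tfh markers, 7 (63.6%) had a listed peak, beside 21.0% of all protein-coding genes, and Cxcr5, Icos, Il21 and Cd40lg had none assigned. No peak was listed at 5 B cell markers or at 4 markers of CD8 T cells and NK cells, and 1 of 4 myeloid markers had one (Cd14, fold 4.13, with 13 fragments at a transcription termination site). In such bulk samples, more cells of a type on the anti-IFNAR1 side and more open DNA per cell cannot be told apart. A marker without a listed peak may still be open in both groups.

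Because nearly all Zfp peaks lay at gene starts, the DNA just upstream of the start is shown for the members the results turn on. Each line holds the 150 bases before the RefSeq start, 5′ to 3′ on the gene's strand, from RefSeq (GRCm38.p6, the genome of mm10). Only stretches outside every RefSeq gene were chosen. Members with high folds are Zfp563 (chr17:33089217-33089366, plus strand), Zfp1 (chr8:111643293-111643442, plus strand) and Zfp958 (chr8:4613020-4613169, plus strand). Zfp763 (chr17:33033382-33033531, minus strand) is a neighbour of Zfp563 in a gene cluster, and Zfp788 (chr7:41633381-41633530, plus strand) had a high pileup at a low fold. Zfp281 (chr1:136624751-136624900, plus strand) and Zfp36 (chr7:28379229-28379378, minus strand) are members known in lymphoid cells. Zfp36l1 (chr12:80113014-80113163, minus strand) is a close relative of Zfp36 without a listed peak. Capitals mark matches, on either strand, to the CCAAT box (CCAAT), the ETS site (CCGGAAG), the SP and KLF box (GGGCGG), the ZFP143 core (ACTACAA), the AP-1 site (TGANTCA) and the TATA box (TATAAA).
Zfp563: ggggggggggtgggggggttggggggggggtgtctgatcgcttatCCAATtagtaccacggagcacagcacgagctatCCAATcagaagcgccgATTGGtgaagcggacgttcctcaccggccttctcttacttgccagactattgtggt
Zfp1: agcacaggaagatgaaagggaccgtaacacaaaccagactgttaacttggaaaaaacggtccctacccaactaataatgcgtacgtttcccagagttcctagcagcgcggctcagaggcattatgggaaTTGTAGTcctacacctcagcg
Zfp958: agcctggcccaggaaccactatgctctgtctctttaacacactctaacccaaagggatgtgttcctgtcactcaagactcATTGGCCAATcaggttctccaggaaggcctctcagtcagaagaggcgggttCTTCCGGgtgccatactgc
Zfp763: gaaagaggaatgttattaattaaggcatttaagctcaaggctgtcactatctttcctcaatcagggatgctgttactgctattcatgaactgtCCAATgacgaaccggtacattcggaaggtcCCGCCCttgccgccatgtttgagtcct
Zfp788: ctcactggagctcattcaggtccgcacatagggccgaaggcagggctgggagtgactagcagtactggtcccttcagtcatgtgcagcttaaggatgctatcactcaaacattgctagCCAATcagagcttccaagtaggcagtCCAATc
Zfp281: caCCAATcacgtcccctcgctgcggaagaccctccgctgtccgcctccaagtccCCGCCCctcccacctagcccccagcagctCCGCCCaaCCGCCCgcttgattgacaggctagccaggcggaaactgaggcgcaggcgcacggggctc
Zfp36: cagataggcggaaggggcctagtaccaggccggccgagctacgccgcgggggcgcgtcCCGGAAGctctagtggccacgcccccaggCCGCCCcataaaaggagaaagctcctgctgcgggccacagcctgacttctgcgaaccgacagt
Zfp36l1: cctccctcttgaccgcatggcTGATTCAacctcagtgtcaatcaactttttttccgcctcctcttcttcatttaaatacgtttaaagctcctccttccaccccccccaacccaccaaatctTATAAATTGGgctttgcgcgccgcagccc

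The listed peaks of Zfp563, Zfp958, Zfp763, Zfp788 and Zfp281 overlapped the stretch shown, that of Zfp1 began just downstream of it, and that of Zfp36 lay farther upstream. CCAAT was present in the stretches of Zfp563, Zfp958, Zfp763, Zfp788, Zfp281 and Zfp36l1, and CCGGAAG in those of Zfp958 and Zfp36. In Zfp36l1 the TATA box and the CCAAT match overlap. A match is a description of letters and not a bound site.

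Zfp genes were listed about as often as other genes. Of the 397 Zfp genes, 94 (23.7%) had at least 1 listed peak, beside 21.0% of all 21900 protein-coding genes. When a summit had to lie within 1 kb of a RefSeq start, 87 of 331 Zfp genes with a start in the table (26.3%) had one, beside 23.0% of all genes. This count takes a summit whichever gene the file assigned it to, so it is not a part of the 94. With any peak within 5 kb of the gene, the shares were 30.7% and 29.1%. The Zfp share stood close to that background under each of these definitions. Of the 94 genes, 89 had 1 peak and 5 had 2, namely Zfp36l2, Zfp276, Zfp467, Zfp638 and Zfp703.

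In the file's annotation 93 of the 99 Zfp peaks, or 93.9%, were assigned to a transcription start site, or TSS (95% Wilson interval from 87.4 to 97.2), beside 81.2% of 5103 other protein-coding peaks. Introns held 4 Zfp peaks (4.04%, beside 7.64% of other peaks). A 5′ UTR exon held 1 (1.01%, beside 4.53%) and a transcription termination site 1 (1.01%, beside 1.94%). No Zfp peak lay in a coding exon, where 4.10% of other protein-coding peaks lay, or in a 3′ UTR exon, and 0 of 99 leaves room for a share of up to 3.74% in each (upper Wilson bound). The interval covers counting error only, and members of a gene array share sequence and are not independent.

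The 6 peaks outside TSS sections belonged to Zfp619, Zfp712, Zfp407, Zfp385a, Zfp428 and Zfp703. Those in intron 1 of Zfp619 (fold 3.47, 29 fragments) and Zfp712 (fold 5.31, 33 fragments) lay 469 and 359 bp from the TSS in the file, and that in a 5′ UTR exon of Zfp428 (fold 4.70, 17 fragments) 307 bp. These were therefore close to promoters too. The peak in intron 2 of Zfp407 lay 264836 bp from the TSS, at chr18:84293270-84293590, with 27 fragments over a background of 1.18 and a fold of 3.96. The peak in intron 2 of Zfp385a, which encodes a cofactor of p53, lay 15979 bp from the TSS, at chr15:103323631-103324108, with 42 fragments over 1.42 and a fold of 5.33. Zfp407 and Zfp385a were thus the members with a listed intron site that was distant from the TSS given in the file. For Zfp703, a transcriptional corepressor gene, the peak at chr8:26978395-26978806 was annotated as a transcript end. It lay inside the RefSeq span of the gene (26977336 to 26981462), at neither edge. This peak had a fold of 4.32 and an annotated TSS distance of 1070 bp. A further peak at the Zfp703 TSS had a fold of 4.96.

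**Figure D1:**
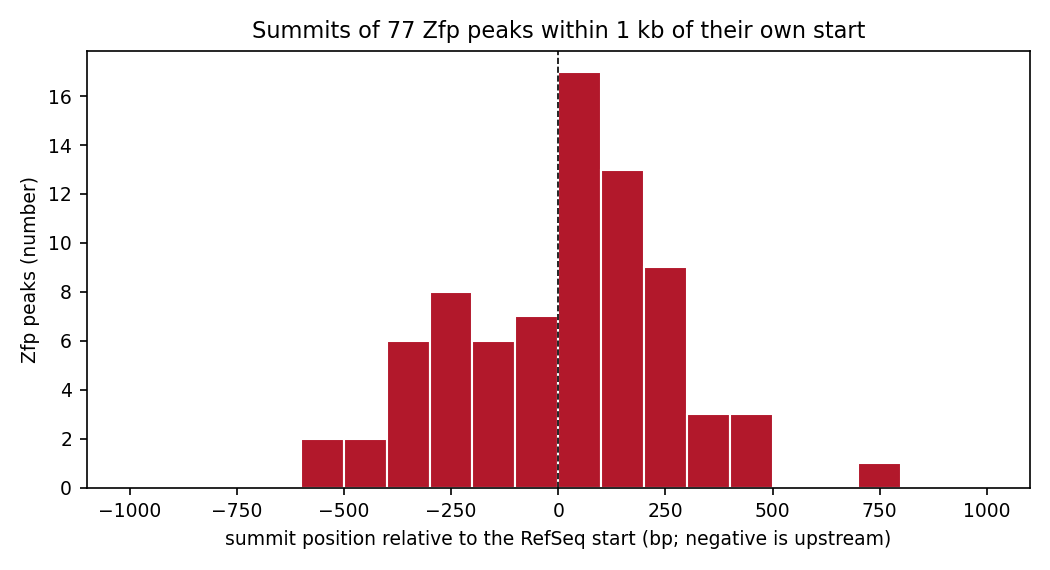
Number of Zfp peaks (vertical axis) by distance of the summit from the gene's nearest RefSeq start in bp (horizontal axis, negative upstream, bars of equal width), for the 77 peaks within 1 kb. Most summits lie close to the start, more of them downstream than upstream.

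Summits gathered close to the gene's own start. For 81 peaks the start was in the RefSeq promoter table, and the median distance was 189 bp, with 52 summits within 250 bp, 74 within 500 bp and 77 within 1 kb. Of the 81, 48 summits lay downstream of the start and 33 upstream, as the plot of summit distances shows. A summit within 1 kb of the start of another gene was found at 12 peaks. Such a site cannot be assigned to 1 gene: the summit at Zfp91 lay equally far, 261 bp, from the start of Gm44505, and that at Zfp408 lay at -175 bp from the start of Zfp408 and -152 bp from that of Arhgap1, negative values being upstream.

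The reverse also occurred. For 11 Zfp genes without a peak of their own in the file, a listed summit lay within 1 kb of the RefSeq start but had been assigned to a neighbour or to no gene. These genes were singled out after their values were seen. The highest fold among them was 9.40 at the start of Zfp146, assigned to Gm5113, with 63 fragments against 1 control fragment at the site. Next were Zfp689 with 7.90 and Zfp954 with 6.57, and the others were Zfp869, Zfp664, Zfp653, Zfp874a, Zfp52, Zfp33b, Zfp592 and Zfp319, down to a fold of 2.81. The count of 94 genes is therefore a count of names in the file, not of all open Zfp promoters.

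**Figure D2:**
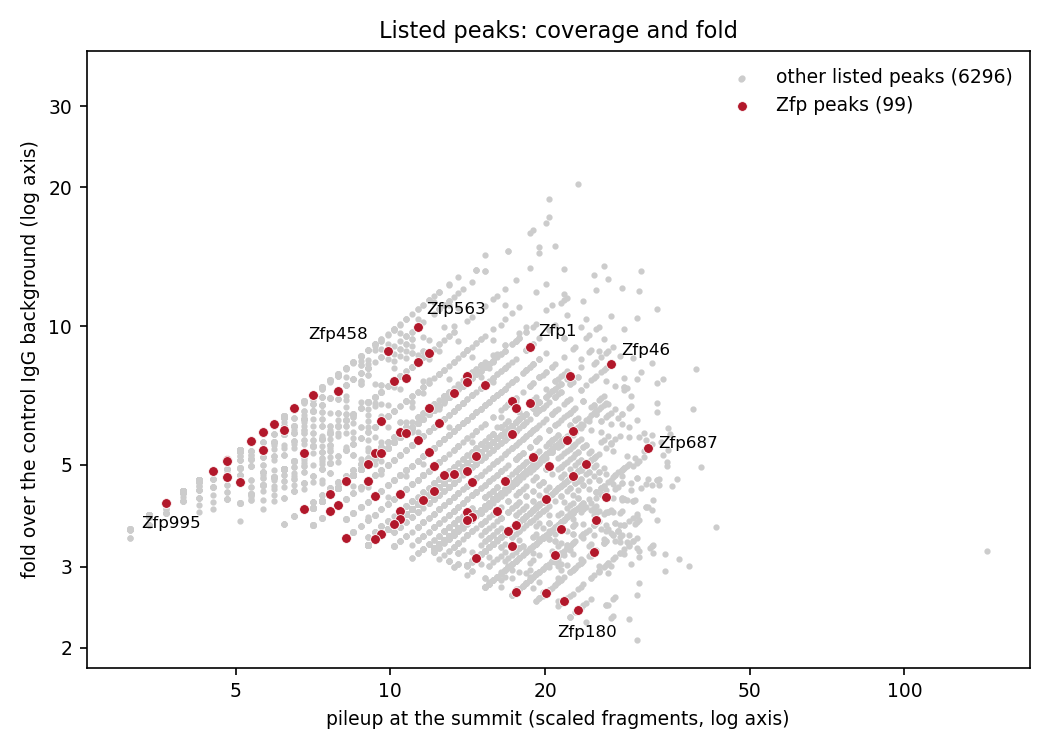
Each point is a listed peak, with the pileup at the summit in scaled fragments on the horizontal log axis and the fold over the control IgG background on the vertical log axis. The 99 Zfp peaks (red) spread through the cloud of the other peaks (grey), between folds of 2.42 and 9.96.

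In size the Zfp peaks resembled the rest of the list. The median fold was 4.84 (quartiles 3.99 and 5.90, range 2.42 to 9.96), beside 4.74 over other protein-coding peaks, and 55 of 99 (55.6%) lay above the median of the list. At TSS peaks alone the medians were 4.96 for Zfp genes and 4.77 for the others. The median pileup was 11.87 beside 12.16, from a median of 42 beside 43 anti-IFNAR1 fragments, and the median control background was 1.65 fragments in both sets. Zfp peaks were 513 bp wide at the median, beside 549 bp. As the plot of fold against pileup shows, the family had none of the most extreme folds of the list, which reached 34.4.

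The fold rests on few control fragments. The control background of the 99 Zfp peaks was counted at the site for 35, in a 1 kb window for 47, in a 10 kb window for 7 and set to the genome rate of 0.132 fragments for 10. The caller treats this background as known, so the noise of the control fragments was added in a one-sided exact conditional binomial test. A peak was kept where p did not exceed 6.9e-05, the largest caller's p in the list. The exact test counts unscaled fragments, whereas the caller's p rests on the pileup scaled to control depth. With the caller's background, p fell at Zfp36 from the caller's 1.06e-12 to 2.8e-32 and rose at Zfp563 from 5.01e-17 to 4.77e-13. The numbers kept therefore do not isolate control noise. With the background the caller used, 70 of 99 Zfp peaks (70.7%) were kept, beside 68.7% of all listed peaks. At the site alone 24 of 99 (24.2%) were kept, beside 20.9%, and these belonged to 24 of the 397 genes (6.05%), beside 5.18% of all protein-coding genes. At the site, 39 fragments are needed even with 0 control fragments, and 44 of the 99 peaks had fewer. The limit is not particular to the family, since the median was 42 fragments for Zfp peaks and 41 for all listed peaks. The peaks were listed for high summit coverage and the same counts enter this test, so ratios are tilted upward.

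Zfp563, a gene of a cluster on chromosome 17, had the highest fold of the family, 9.96, at chr17:33089267-33089622. Its 40 fragments stood over a background of 0.236 (1 control fragment in 1 kb), with a q of 2.37e-12 and rank 99 by fold among the 6395 peaks. Zfp1 at chr8:111643448-111644517 followed with a fold of 9.02, 66 fragments over 1.18 and rank 181. Zfp458 at chr13:67268778-67269569 had a fold of 8.81 with 35 fragments over 0.236, and Zfp518a at chr19:40894699-40895541 had 8.75 with 42 over 0.472. All 4 lay at the TSS with a background below 2 control fragments. Zfp458 was not kept in the test at the site, since its 35 fragments are fewer than the 39 needed, whereas Zfp563, Zfp1 and Zfp518a were kept.

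The other 6 of the 10 highest folds were Zfp444 with 8.36, Zfp46 with 8.29, Zfp958 with 7.79, Zfp24 with 7.78, Zfp827 with 7.73 and Zfp691 with 7.59. Zfp24, a SCAN domain factor known from myelination, held 79 fragments against 2 control fragments at the site. Zfp46 combined a high fold with a pileup of 26.86, next below the highest of the family, from 95 fragments over a background of 2.36. Zfp827 and Zfp691, with 38 and 36 fragments, were not kept in the test at the site, and the other 4 were.

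The lowest folds were those of Zfp180, Zfp78, Zfp959, Zfp219 and Zfp157. Zfp180 had a fold of 2.42 at chr7:24081906-24082149, with 82 fragments against 9 at the site, and the depth-scaled ratio was 2.58 (exact 95% interval 1.29 to 5.83). Zfp78 had 2.53 (77 against 8 fragments), Zfp959 2.63 (71 against 7), Zfp219 2.65 (62 against 6) and Zfp157 3.14 (52 against 4). These promoters were thus covered on both sides, and none of the 5 was kept in either exact test. A fold this low reaches the q of 0.05 of the list with many fragments only, so the list holds no low folds at low coverage.

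The highest pileups were those of Zfp687, Zfp46, Zfp36l2, Zfp788 and Zfp143. Zfp687, whose human counterpart is mutated in a form of Paget's disease of bone, reached 31.66, from 112 fragments against 5 control fragments at the site, at a fold of 5.44 and q of 2.26e-11. Its summit lay at -507 bp from the Zfp687 start and 435 bp downstream of the 4930481B07Rik start. Zfp788 had a pileup of 25.16 with 89 fragments over a background of 5.90 and a fold of 3.79. These promoters were the most covered of the family, yet among them only Zfp46 was also in the top 10 by fold.

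**Figure D3:**
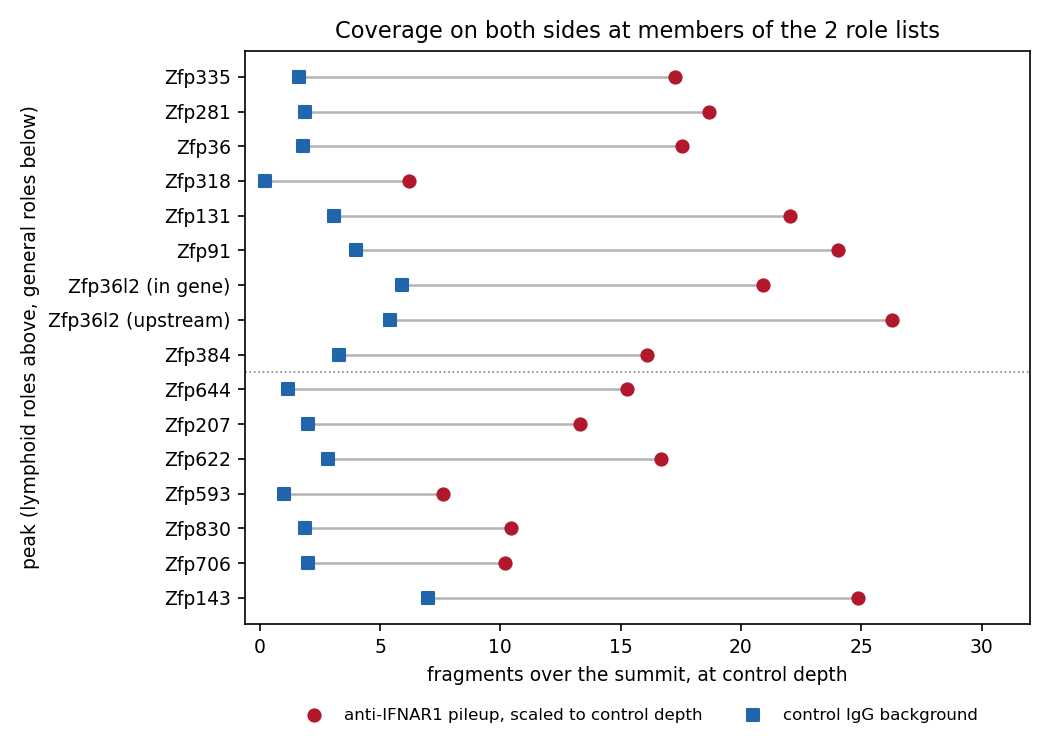
Fragments over the summit at control depth (horizontal axis) at the 16 peaks of listed members with a known role (vertical axis, lymphoid roles above the dotted line and general roles below), as anti-IFNAR1 pileup (red circles) and control IgG background (blue squares). The gap is narrow in proportion at Zfp36l2 and Zfp143, where the control side is also covered, and Zfp318 has low coverage on both sides.

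Of 14 Zfp genes with a known role in lymphoid cells, 8 (57.1%) had a listed peak, beside the 21.0% of all protein-coding genes given above. These members were chosen with results of these data known, so the share supports nothing about the list. The highest folds were at Zfp335, Zfp281 and Zfp36, and the lowest was 3.18, at 1 of the 2 Zfp36l2 peaks. By the higher peak of each gene, the lowest was 3.98 at Zfp384. Zfp36l1, Zfp148, Zfp831, Zfp609, Zfp217 and Zfp683, the gene of the tissue-residency factor Hobit, had no listed peak. RefSeq holds Zfp683 as a pseudogene, so it is outside the 397.

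Zfp335, required for the maturation of thymic emigrants into naive T cells, had a peak at its TSS, at chr2:164911274-164912315. It held 61 fragments over a background of 1.65 (7 control fragments in 1 kb), a fold of 6.88 and a q of 3.87e-09. Scaled for depth, this was a ratio of 10.4 (exact 95% interval 4.77 to 27.1). The summit lay 178 bp downstream of the Zfp335 start and 139 bp from that of the antisense gene Zfp335os, and since ATAC-seq carries no strand of transcription, the promoters cannot be told apart. Zfp281, a factor known for repressing pluripotency genes in stem cells, had 66 fragments over 1.89, a fold of 6.81 and a ratio of 9.88 (4.73 to 23.8), at chr1:136624317-136624830. Zfp131, a BTB domain factor, had 78 over 3.07, a fold of 5.67 and a ratio of 7.19 (3.97 to 14.1), at chr13:119790865-119791470. All 3 were kept in the exact test at the site.

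Zfp36, which encodes tristetraprolin, a protein that marks cytokine messages such as that of TNF for decay, had 1 peak, at chr7:28381145-28382006. It held 62 fragments over a background of 1.79 from the 10 kb window (76 control fragments there), its fold was 6.63 and its q 1.26e-08. The summit lay at -2193 bp from the RefSeq start of Zfp36, upstream of the gene and on the side of Med29. The file calls this site TSS, with the peak at -891 bp from a transcript start. The stretch printed above, next to the RefSeq start, held no listed peak, so the listed site was not the RefSeq promoter of Zfp36 itself.

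Zfp36l2, which acts with Zfp36l1 to keep developing lymphocytes quiescent, had 2 peaks with high coverage on both sides. The peak in the gene, at chr17:84186076-84187881, was the widest of the family at 1805 bp and held 74 fragments over 5.90, with a fold of 3.18. The upstream peak, at chr17:84188152-84188522, held 93 over 5.43, with a fold of 4.25 and a pileup of 26.29. Their depth-scaled ratios were 3.55 (2.23 to 5.83) and 4.84 (3.04 to 8.01), intervals that overlap, and the upstream peak was kept in the test at the site whereas the peak in the gene was not. Zfp36l1 had no listed peak, and whether its promoter was equally open in both groups, more open in control mice or closed cannot be read from a list of gains.

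Among the other lymphoid members, Zfp91, a ubiquitin ligase gene of the non-canonical NF-κB pathway, had 85 fragments against 4 at the site, at chr19:12795677-12796694. Its fold was 5.01 and its ratio 6.01 (2.26 to 22.6), and it was kept at the site. Zfp318, needed in B cells for the switch from IgM to IgD transcripts, had 22 fragments over a background of 0.212 from the 10 kb window, with a fold of 5.95, at chr17:46383087-46383659. Zfp384, a fusion partner in acute lymphoblastic leukaemia, had 57 over 3.30, a fold of 3.98 and a ratio of 4.88 (2.68 to 9.48), at chr6:125009028-125009471. Zfp318 and Zfp384 were not kept in the test at the site, and Zfp318 had too few fragments to pass it.

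Of 15 members with a general role, 7 (46.7%) were listed, beside 21.0% of all protein-coding genes, and these members too were chosen with results known. Zfp644, part of the G9a and GLP histone methyltransferase complex, led with a fold of 7.46 from 54 fragments over 1.18. The ribosome assembly genes Zfp622 and Zfp593 had folds of 4.61 (59 fragments over 2.83) and 4.32 (27 against 1 at the site). Zfp207, which encodes a spindle assembly factor, had 4.76 with 47 against 2 fragments, the splicing gene Zfp830 had 3.97 with 37 over 1.89, and Zfp706 had 3.73 with 36 against 2. Zfp143, a factor bound at many promoters and at chromatin loop anchors, had 88 against 7 fragments and a fold of 3.23, with a ratio of 3.55 (1.65 to 9.10). The Zfp143 promoter was thus among the most covered of the family and among the lowest in fold. Of these 7, Zfp644 and Zfp622 were kept in the test at the site. No peak was listed for Zfp410, Zfp598, Zfp106, Zfp57, Zfp42, Zfp809, Zfp568 or Zfp932, which include the imprint guardian Zfp57, the stem cell gene Zfp42 and the retrovirus silencer Zfp809.

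Genes that act with these proteins were read from lists of the same kind. Of 20 genes of the KRAB corepressor machinery, 9 (45.0%) had a listed peak, all at the TSS, beside 21.0% of all protein-coding genes. Trim28, the corepressor that KRAB domains bind, had a fold of 4.21 with 43 fragments over 2.12, the heterochromatin protein gene Cbx1 had 4.88 and Cbx3 3.25. Fam208a, a subunit of the HUSH silencing complex, had the highest fold of the list, 13.5, from 92 fragments against 1, and was the only one of the 9 kept in the test at the site. The histone methyltransferase gene Setdb1 and Cbx5, Mphosph8 and Dnmt1 were among the 11 without a peak. Of 22 messenger RNA decay genes that work with the Zfp36 family, 14 (63.6%, beside the same 21.0%) had 18 peaks. Both lists were chosen with results known and nothing particular to them is read from these shares. The deadenylase genes Cnot6 with a fold of 9.13 and Cnot2 with 6.47 led, Cnot6l had 3 peaks with folds up to 6.18, and the quiescence gene Btg1 had 5.62 at its TSS. The RNA-binding regulators Rc3h1 (Roquin) and Zc3h12a (Regnase) had low folds, 2.97 and 3.09.

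**Figure D4:**
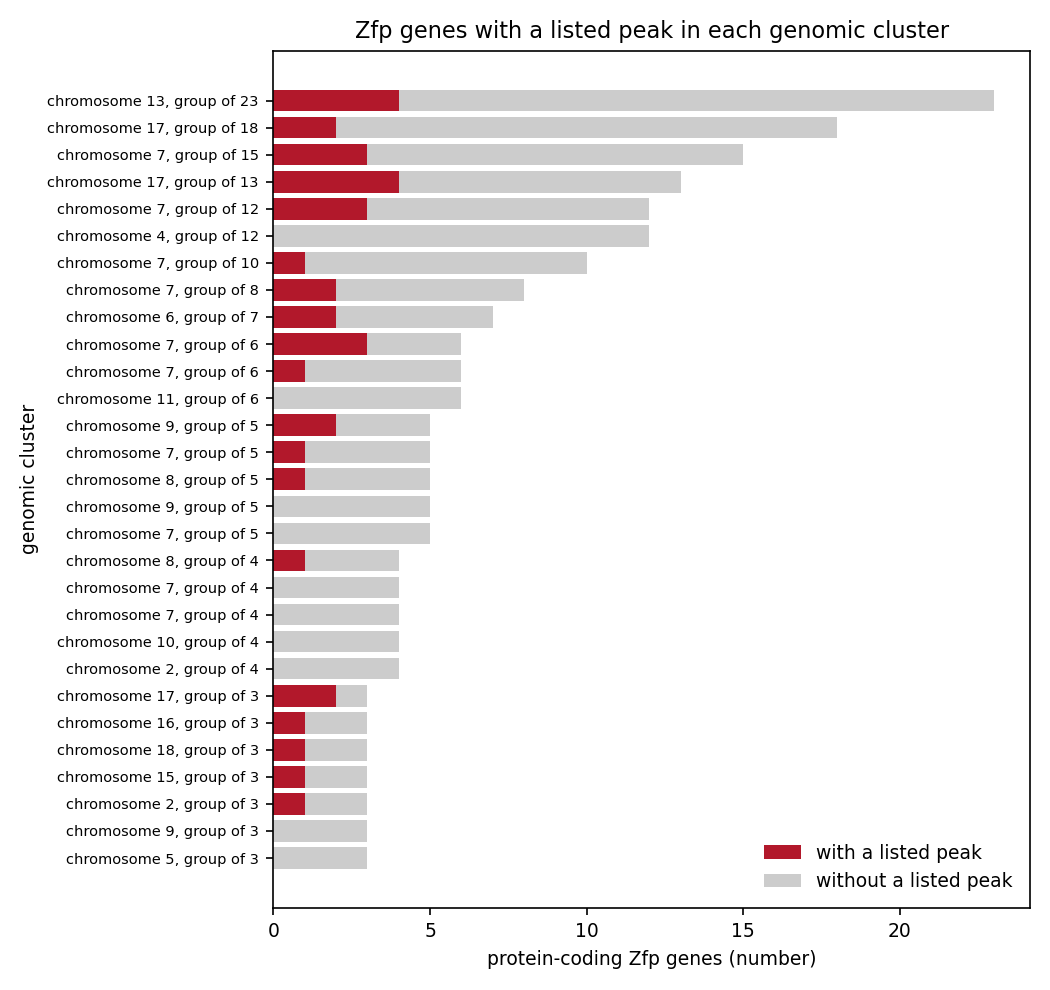
Number of protein-coding Zfp genes (horizontal axis) in each of the 29 genomic clusters (vertical axis, named by chromosome and number of genes), split into genes with a listed peak (red) and without (grey). Listed genes are scattered over many clusters, and no cluster of more than 3 genes had over 50% listed.

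The share of genes listed was lower for Zfp genes in genomic clusters than for those outside them, a difference that was not tested. Genes outside clusters are not all isolated, since pairs such as Zfp692 and Zfp672 are among them. A cluster was taken as at least 3 Zfp genes with gaps of at most 250 kb between neighbours, which gave 29 clusters with 202 genes. Of these, 36 (17.8%) had a listed peak, beside 58 of 195 Zfp genes outside clusters (29.7%). With gaps of at most 100 kb the shares were 18.7% and 27.9%, and with 500 kb 18.8% and 31.0%. Neighbouring genes in an array share sequence and are not independent. In 10 clusters with 50 genes no gene was listed, 9 clusters had 1 and 10 had at least 2, as the plot of clusters shows. These counts follow the gene names in the file. Of the 11 Zfp starts with a summit assigned elsewhere, 7 were of cluster genes, and those of Zfp954 and Zfp653 lay in 2 of the 10 clusters counted as without a listed gene. Among listed peaks, the median fold was 5.04 over 36 in clusters beside 4.76 over 63 outside, on a median of 40 beside 45 fragments. The median control background was 1.09 beside 1.89 fragments. The difference in fold was not tested, and the list holds no low folds at low coverage.

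The largest cluster, 23 genes over 788 kb of chromosome 13 (67038594 to 67827000), had 4 listed genes. These were Zfp458 with a fold of 8.81, Zfp457 with 6.13, Zfp273 with 5.65 and Zfp712 with 5.31. The cluster of 13 genes at 32765496 to 33631716 of chromosome 17 also had 4, namely Zfp563 with 9.96, Zfp763 with 7.57, Zfp871 with 6.62 and Zfp472 with 3.73. Zfp563, Zfp763 and Zfp871 were kept in the test at the site, more than in any other cluster. The 18 genes at 21383707 to 22456689 of the same chromosome had 2 listed, Zfp677 with 3.78 and Zfp995 with 4.13. The 3 genes at 55864886 to 55956233 had 2 listed, with folds of 6.16 at Zfp119a and 2.63 at Zfp959. These values differ widely between neighbours, so listed genes of 1 cluster had no common fold.

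Chromosome 7 holds 93 of the 397 Zfp genes, and 20 of them (21.5%) were listed, beside 16.4% of all protein-coding genes of that chromosome. Its cluster of 6 genes from 6131489 to 6396637 had 3 listed, Zfp444 with a fold of 8.36, Zfp667 with 4.09 and Zfp78 with 2.53. The 12 genes from 24081877 to 24587840 had Zfp94 with 5.31, Zfp428 with 4.70 and Zfp180 with 2.42. The 15 genes from 29768552 to 30169775 had Zfp382 with 5.38, Zfp84 with 4.20 and Zfp566 with 3.71, and the 8 genes from 27674661 to 28014210 had Zfp60 with 4.96 and Zfp607a with 4.58. Of these 11 chromosome 7 genes, Zfp444 alone was kept in the test at the site.

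On chromosome 6, Zfp786 with 5.88 and Zfp398 with 5.23 were listed of 7 genes. On chromosome 9, Zfp560 and Zfp846 were listed of 5 genes and had identical values, 19 fragments at the genome rate and a fold of 5.63. Such ties arise because the fold at the genome rate depends on the fragment count alone. The largest cluster without a listed gene was that of 12 genes over 1400 kb of chromosome 4 (146449030 to 147849126). Chromosome 12 had 0 of 6 Zfp genes listed, beside 24.4% of its protein-coding genes.

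**Figure D5:**
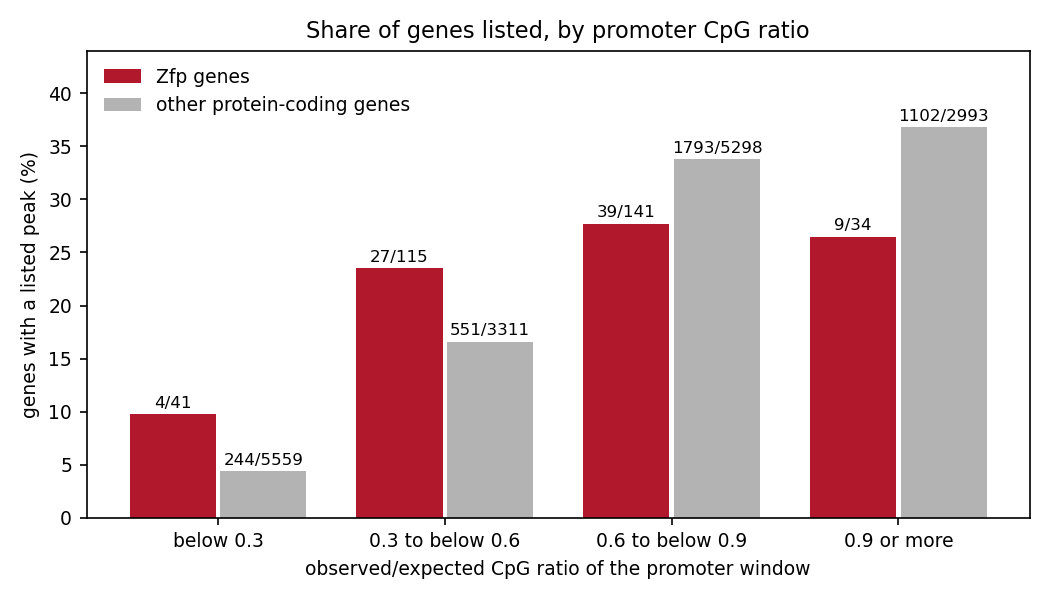
Share of genes with a listed peak in percent (vertical axis, from 0) in 4 ranges of the observed over expected CpG ratio of the 300-base promoter window (horizontal axis), for Zfp genes (red) and other protein-coding genes (grey), with listed over all genes above each bar. The Zfp share is 9.76% in the lowest range and 23.5% to 27.7% in the other 3.

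Promoters of listed Zfp genes lay between unlisted Zfp promoters and other listed promoters in CpG content, in shares that were not tested. RefSeq windows of 300 bases, from 250 before to 50 after the start, were present for 79 of the 94 listed and 252 of the 303 unlisted Zfp genes. An observed over expected CpG ratio of at least 0.6 was found in 60.8% of listed and 50.4% of unlisted Zfp promoters, beside 78.5% and 40.1% of other protein-coding promoters. By range of the ratio, the share of Zfp genes listed was 9.76%, 23.5%, 27.7% and 26.5%, beside 4.39%, 16.6%, 33.8% and 36.8% of other genes, as the plot by CpG ratio shows. The Zfp share was above that of other genes in the lower ranges and below it in the upper ones, with 34 to 141 Zfp genes in a range. Cluster genes had the lower ratios, with 52.9% of 34 listed and 45.1% of 144 unlisted at 0.6 or above, beside 66.7% and 57.4% outside clusters. Among promoters at 0.6 or above, 21.7% of cluster genes and 32.6% of the others were listed, and below 0.6 the shares were 16.8% and 24.6%. The part of CpG content in the cluster shares was not tested.

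Young gene arrays hold near-copies, and reads from copies can be lost in alignment. In 30 Zfp promoters at least 50% of the 25-base words also occurred elsewhere in the promoter table, and 2 of the 30 (6.67%) were listed, Zfp959 and Zfp931, beside 77 of the other 301 (25.6%). These 2 are named because the count is small. At least 50% of words were shared in 16 of 144 unlisted cluster promoters (11.1%) and in 12 of 108 unlisted promoters outside clusters (11.1%). The treatment of reads with several matches is not given, and the part of read mapping in these shares was not tested.

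Motif shares of listed and unlisted Zfp promoters were compared without a test. The ETS site CCGGAAG was in 25.3% of listed and 21.0% of unlisted Zfp promoters, beside 16.9% of other listed promoters and 11.9% of all. CCAAT was in 48.1% and 50%, beside 39.0% and 39.2%. The SP and KLF box GGGCGG, a mark of CpG-rich promoters, was in 48.1% and 43.3%, beside 70.4% and 46.3%. The interferon response repeat GAAANNGAA was in 5.06% of listed (4 genes) and 7.14% of unlisted Zfp promoters, beside 6.15% of other listed promoters and 8.24% of all. The ZFP143 core ACTACAA was in 5.06% and 6.75%, beside 4.04% and 3.82%. Some shares with small counts lay farther apart. The YY1 site AAGATGGCG was in 4 of 79 listed (5.06%) and 5 of 252 unlisted Zfp promoters (1.98%), beside 3.31% of other listed promoters and 1.92% of all. The E-box CACGTG was in 3 (3.8%) and 21 (8.33%), beside 10.3% and 7.91%. Each motif was searched on both strands of the 300-base window. The ETS and CCAAT shares of Zfp promoters, listed or not, were above those of other listed promoters and the GGGCGG shares below, which was not tested. A start of another gene on the opposite strand within 1 kb was present at 15.2% of listed and 12.7% of unlisted Zfp promoters, beside 20.7% of other listed ones.

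Among members with 2 peaks, Zfp467, a regulator of bone and fat cell fate, had folds of 7.21 and 6.21 from 28 and 34 fragments. Zfp638, which takes part in silencing unintegrated retroviral DNA, had 4.39 and 3.85 from 43 and 51 fragments. The Zfp638 peaks were found at the outer 5′ start (start at 83867077) and at an internal start (83914400). Zfp276 had folds of 5.29 and 4.70 from 24 and 17 fragments. Of these 6 peaks none was kept in the test at the site. The 34 listed members that met no rule for naming, among them Zfp408 and Zfp931 mentioned above, had folds of 3.33 to 7.14. Their median was 4.76, on 13 to 80 fragments.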

How the data were processed

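Sorted splenic Tfh cells of 7 samples were profiled by ATAC-seq, grouped by treatment label. The submitters' processing notes name, with no role or order, MACS2 2.1.0.20150420, BWA 0.7.9a, bedtools, DESeq2, DiffBind 2.0.7 and build mm10. Transposase shift, duplicates, reads with several matches and the libraries on each side are not given in the sources used here. As deposited by the authors, the data were 1 peak list in MACS2 layout, with 0 columns of single samples, and depth per sample is unknown. Per the file headers, its values include a pileup and a fold enrichment. The pileup was read as that at the summit. The fold was read as its ratio over the local background, with a pseudocount of 1 added to both terms. The authors' damaged columns were taken for −log10 p and −log10 q. A recomputed −log10 p differed by at most 0.000125. The side taken as treated was read from peak names and sample titles.

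Pileups were whole multiples of 0.283 (tolerance 0.005), which gave fragments. The background followed from the fold, with a fragment length of 236 bp. At the site, unknown control fragments took the highest number the background permits, so kept peaks are a minimum. The test with the caller's background held no control noise for peaks at the genome rate. Intervals and shares cover counting error only, and PCR copies are not independent molecules. Gene spans and promoters came from RefSeq (GRCm38.p6).

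No comparison between samples was possible, so counts and medians are described beside those of all features, without set tests. Members, gene lists and motifs were chosen with earlier results of these data known. Genes named are both role lists, the 10 highest and 5 lowest folds and the 5 highest pileups. Members with 2 peaks, with a peak outside TSS sections or in clusters with at least 2 listed genes are named too. Others are marked as chosen after their values were seen, except Zfp408 and Zfp931, which were named outside these rules. Alternatives were q at or below 0.01, a pileup of at least 10, gene assignment, promoter definition, 1 peak per gene, a pseudocount of 0.5, exact tests and cluster gaps. The scripts (Python 3.11.15, pandas 2.3.3, NumPy 2.4.6, SciPy 1.17.1) were tested on simulated data.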

Additional observations from a re-analysis of the deposited data

How the results depend on the processing

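The number of Zfp genes with a listed peak was 94 in the deposited list and 80 at a q of at most 0.01, 87 for promoter summits alone, 122 within 5 kb and 66 when control noise was added to the caller's background. It fell to 61 with a pileup of at least 10 and to 24 in the exact test at the site, where fewer peaks can pass by construction. The median fold rose from 4.84 to 6.08 with a pseudocount of 0.5, as did that of other protein-coding peaks, to 5.97. Under its other alternatives it was 4.76 to 5.20. The TSS share ran from 93.9% to 96.9%, and the listed genes in clusters numbered 34 to 45. No paired analysis was possible because no column carries a sample. For the same reason no replicate could be left out. The comparison of KRAB members, and its alternative by number of fingers, were not run, since no protein table was used here. With 39 fragments needed at the site, depth limits which members can pass.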

Other observations

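Other zinc finger families were listed at different shares. Of 41 Zbtb genes, which carry a BTB domain and include T cell regulators, 16 (39.0%) had a listed peak, beside 21.0% of all protein-coding genes and 23.7% of Zfp genes, with a median fold of 5.69 over 17 peaks. Zbtb20 led with 7.46 in a 5′ UTR exon, and Zbtb7b, the CD4 lineage factor ThPOK, had 2 peaks with folds of 4.37 and 4.17. Of 19 Zc3h genes, with CCCH fingers like the Zfp36 family, 11 (57.9%) were listed, with a median fold of 4.62. Of 17 Klf genes 8 (47.1%) were listed, with a median of 3.64, and of 27 Zscan and Zkscan genes 3 (11.1%), with a median of 4.17. Klf genes were added after the other families were chosen, and none of these shares was tested.

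The antisense gene Zfp652os, which the member rule leaves out, had a TSS peak on chromosome 11 from 95713500 to 95714014, with 21 fragments at the genome rate, a fold of 6.13 and a q of 2.1e-05.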
